A study of Mus musculus with 8 samples.

Results

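The solute carriers described here are the 193 genes whose array name is Slc followed by a number and whose probe was well above background on all 8 arrays, leaving out Slc2a1, Slc7a2, Slc7a11, Slc11a1, Slc11a2, Slc16a3 and Slc40a1. The array carries probes for 375 Slc-named genes, of which 241 were above background on at least 2 arrays and 198 on all 8, and 5 of those 198 are among the excluded names. Transcripts were measured in RAW264.7, a transformed mouse macrophage line, on 1-colour oligonucleotide arrays. Cells grown in RPMI1640 with 5% FBS received melatonin at 1 mM for 1 h or were left without it, and then LPS of Escherichia coli (100 ng/ml) for 1, 3 or 5 h, or no LPS. The arm without melatonin is called the untreated arm below and the other the melatonin arm. Each of the 8 conditions (0, 1, 3 and 5 h in each arm) had 1 array, so each LPS time set 2 arrays, 1 from each arm, against the 2 arrays without LPS, and melatonin set 4 arrays against 4.

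Several features of the layout limit what the groups stand for. LPS time went with hours in culture and with the column of the slide, and melatonin went with the row of the slide, so these cannot be told apart from the treatments. The labels name no vehicle for melatonin. Groups followed the sample titles. The treatment field gave a later LPS time than the title for the melatonin arrays titled 0, 1 and 3 h. For 1879 genes that changed with LPS in the untreated arm, levels were centred on the gene's mean within each arm, which lowers correlations between unlike times. The melatonin arrays titled 0, 1 and 3 h then correlated with the untreated array of the titled time at r = 0.888, 0.724 and 0.716. With the untreated array of the treatment field's time r was 0.428, -0.583 and 0.632. Genes are not independent replicates. All 10 macrophage markers checked were above background on all 8 arrays and none of the 3 epithelial markers was on any; Cd3e, Cd4 and Elane, markers of T cells and neutrophils, were also above background on all 8. The 75th percentile of the signal was between 659 and 846 and 47.0 to 53.0% of probes were well above background, with no saturated spot. In a culture measured in bulk, fewer cells of a kind and less RNA per cell cannot be told apart.

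Solute carriers are membrane proteins that move amino acids, sugars, ions, metals, vitamins, nucleotides and metabolites across the plasma membrane and the membranes of lysosomes, the Golgi apparatus and mitochondria. They are numbered in families that broadly share a kind of substrate, and most either exchange their substrate for another solute or couple its movement to a gradient of sodium ions or protons. Macrophages exposed to LPS, the bacterial cell wall component sensed by Toll-like receptor 4, change their use of glucose, amino acids and mitochondrial metabolites, withhold metals from microbes, and sense peptides inside endolysosomes. A level below is the log2 processed signal of a gene's probe minus the 75th percentile of its array, and a change is a difference of such levels, given with its standard error (SE). Genes were tested with limma across all 20076 genes and called at an adjusted p under 0.05. Levels of different probes are not comparable with each other.

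Promoter stretches of 5 members named below are shown as chosen examples. They give the letters around motifs of factors known in macrophages and metal or amino acid sensing. The stretches come from RefSeq, build GRCm38.p6, run 5′ to 3′ on the strand of the gene, and have the motif in capitals. Slc1a4 (chr11:20332706-20332742, minus strand) holds the composite site TTGCATCA of the amino acid stress factor ATF4. Slc20a1 (chr2:129198573-129198780, plus strand) and Slc31a2 (chr4:62286404-62286436, plus strand) hold the E-box CACGTG. Slc30a1 (chr1:191906713-191906769, plus strand) holds the core TGCACNC of the metal response element on its other strand, and Slc43a2 (chr11:75531444-75531502, plus strand) holds an NF-kB site.
Slc1a4: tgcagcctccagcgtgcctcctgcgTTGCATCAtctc
Slc20a1: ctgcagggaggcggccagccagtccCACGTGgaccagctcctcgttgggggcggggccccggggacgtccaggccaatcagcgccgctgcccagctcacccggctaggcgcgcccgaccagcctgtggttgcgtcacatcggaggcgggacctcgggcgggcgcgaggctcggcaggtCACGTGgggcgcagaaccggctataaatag
Slc31a2: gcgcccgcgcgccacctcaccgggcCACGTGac
Slc30a1: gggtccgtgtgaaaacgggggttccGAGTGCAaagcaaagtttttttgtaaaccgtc
Slc43a2: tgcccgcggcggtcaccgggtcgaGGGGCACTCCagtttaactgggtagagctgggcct
Windows of 300 bases around the start were at hand for 145 of the 193 members (198 windows), and both strands were searched. The E-box was in 13.6% of the members' windows and in 7.15% of all 32851 windows, the metal response core in 13.1% and 12.6%, the NF-kB site in 10.6% and 8.46%, the ATF4 site in 2.02% and 0.895%, and the core of the interferon-stimulated response element in 1.52% and 3.44%. Of the matched members, 40 rose, 43 fell and 62 were not called at 5 h of LPS. The next counts are of genes with the motif in any of their windows. The shares of windows are not their background. The NF-kB site was found in 3 of the 40, 12 of the 43 and 3 of the 62, and the E-box in 8, 8 and 9 of them. In the same order the metal response core was in 6, 10 and 9, the ATF4 site in 1, 1 and 1, and the interferon-stimulated core in 2, 0 and 1. These are matches of letters, not measured binding.

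Few carriers changed at 1 h of LPS and most of the calls came at 3 and 5 h. At 1 h of LPS 4 members were called, 3 raised and 1 lowered, which is 2.07% of the members beside 1.96% of all genes tested. At 3 h 36 rose and 51 fell (45.1% of the members, beside 33.7% of all genes, of which 18.6% rose and 15.1% fell), and at 5 h 52 rose and 58 fell (57% of the members, beside 44.2%). At 5 h 30.1% of the members fell, beside 19.3% of all genes, and 26.9% rose, beside 24.9%. Among the 16486 genes above background on all 8 arrays, which is the filter the members passed, 20.3% fell and 28% rose. Fitted on those genes alone, 45.1% of the members were called at 3 h beside 38.4% of the genes, and 58.5% at 5 h beside 49.8%. The median change of the members at 5 h was 0.02, beside 0.08 for all genes tested. Changes past 2-fold were called for 13 members that rose and 24 that fell, together 19.2% of the members, beside 14.3% of the genes above background on all 8 arrays.

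The split between raised and lowered moved with the scaling. With the 75th percentile taken over probes above background on all 8 arrays, 25 members rose and 57 fell at 3 h, and 36 rose and 67 fell at 5 h; that scaling shifted the median change of all genes at 5 h by -0.116. With quantile scaling or the deposited table, 3 rose and 2 fell at 1 h. The counts also leaned on single arrays. At 3 h 87 calls became 33 without the untreated 3 h array and 34 without the untreated 0 h array, and at 5 h 110 calls became 57 without the untreated 0 h array and 72 without the untreated 5 h array. At 1 h 4 calls became 1 to 3 whichever array was left out.

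Of the 193 members, 45 fell at both 3 and 5 h but not at 1 h, 28 rose at both, 20 rose at 5 h alone and 12 fell at 5 h alone, while 74 were called at no LPS time. Of the 78 called at both 3 and 5 h, 77 kept their direction, and the exception was the glycine carrier Slc6a9. Over all members, called or not, the arms changed in the same direction for 151 at 1 h, 160 at 3 h and 161 at 5 h, which is 78.2, 82.9 and 83.4% of them beside 72.6, 79.3 and 81.1% of all genes tested. The called members all have the same sign in both arms, which the test over both arms favours by its construction. Of the 119 members called at any LPS time, the largest change was at 5 h for 81, at 3 h for 33 and at 1 h for 2, and for 3 the changes at 3 and 5 h were equal as rounded. The 3 times share the arrays without LPS, which favours 1 direction at all of them. No share over all genes stands beside the counts of call patterns, kept directions and times of largest change. They describe the members and do not set carriers apart from other genes.

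**Figure D1:**
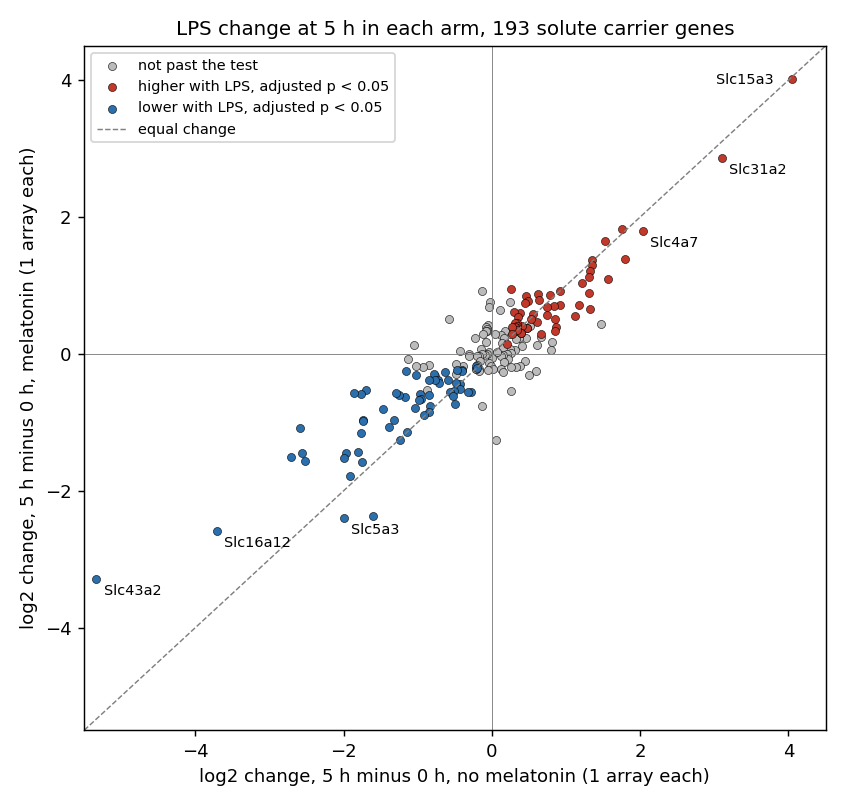
Log2 change of the 193 solute carrier genes at 5 h of LPS in the untreated arm (x axis) and the melatonin arm (y axis), 1 array minus 1 array each, coloured by the limma call over both arms. Over all members 161 of 193 changed in the same direction in both arms, and a call itself rests on the arms being alike; Slc15a3 is the highest at 4.03 on average and Slc43a2 the lowest at -4.31.

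Amino acid and peptide carriers moved in both directions. The 30 members leave out Slc7a2 and Slc7a11, excluded by name. Of them 12 rose and 8 fell at 5 h, beside 24.9% and 19.3% of all genes. Their median change was 0.25. The largest rise of any member was that of Slc15a3, which exports histidine and bacterial di- and tripeptides from endolysosomes (probe on mm9 chromosome 19, 10931798 to 10932148). Its level was 1.65, 2.74, 4.99 and 5.71 at 0, 1, 3 and 5 h of LPS without melatonin and 1.03, 1.64, 3.86 and 5.04 with it. Each later time was higher than the one before in both arms, and the untreated arm was the higher at all 4 times. The change was 3.08 ± 0.152 at 3 h (adjusted p = 0.000294) and 4.03 ± 0.152 at 5 h (adjusted p = 0.000112) (limma), a 16.4-fold rise. Its relative Slc15a4, which carries the same substrates in the same compartment, was not called (0.15 ± 0.148 at 5 h (adjusted p = 0.463)).

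Several carriers of essential and cationic amino acids rose with LPS. Slc3a2 encodes the heavy chain that brings several amino acid exchangers to the cell surface, and its level was 4.16, 4.49, 5.16 and 5.51 at 0, 1, 3 and 5 h of LPS without melatonin and 4.33, 4.47, 5.16 and 5.70 with it. The arms lay close together and both climbed, with a change of 1.36 ± 0.076 at 5 h (adjusted p = 0.000299) (limma); another probe of the gene gave 0.27. Its partner Slc7a5, the light chain that takes up leucine and other large neutral amino acids, stood at -2.33, -2.09, -1.87 and -1.41 in the untreated arm and -2.58, -2.33, -2.08 and -1.66 in the melatonin arm, in the order of time, and rose by 0.92 at 5 h (limma adjusted p = 0.00211). Slc7a1, the uptake route for arginine and lysine, stood at 4.33, 4.63, 5.04 and 5.54 in the untreated arm and 4.20, 4.34, 4.81 and 5.24 in the melatonin arm, in the order of time. It rose in both arms at each step, by 1.12 ± 0.066 at 5 h (adjusted p = 0.000343) (limma). Slc7a8, another light chain for neutral amino acids, had a change of 0.36 at 5 h and was not called (limma adjusted p = 0.292).

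Carriers of glutamine, alanine and serine showed smaller rises. At 5 h Slc1a5, a glutamine exchanger, rose by 0.59 (limma adjusted p = 0.00504), Slc1a4, an exchanger of alanine and serine, by 0.68 (0.00672), Slc38a2, a sodium-coupled carrier of neutral amino acids, by 0.63 (0.0136), and Slc38a1, a glutamine carrier, by 0.59 (0.0287). Each of these 4 calls was lost under at least 1 alternative. That of Slc1a5 was lost under 1 of the 17 alternatives (adjusted p from 0.00439 to 0.0619 over all of them), the loss being with normexp background correction. That of Slc1a4 was lost under 1 of the 17 alternatives (adjusted p from 0.00593 to 0.0504 over all of them), with 0.0504 without the untreated 0 h array. The call of Slc38a2 was lost under 5 of the 17 alternatives (adjusted p from 0.00426 to 0.236 over all of them), with 0.0876 without the untreated 0 h array; the other losses came with other processing settings, and a second probe gave -0.11. For Slc38a1 the call was lost under 9 of the 17 alternatives (adjusted p from 0.0233 to 0.171 over all of them), with 0.168 and 0.171 without the untreated 0 and 5 h arrays in turn; the other losses came with other processing settings.

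Slc6a9, the glycine carrier, changed direction between times. It stood at 1.78, 1.44, 1.41 and 2.40 at 0, 1, 3 and 5 h of LPS without melatonin and 2.62, 2.41, 2.34 and 3.50 with it. In both arms the 1 and 3 h arrays were below the 0 h array and the 5 h array was the highest. The 3 h change was -0.33 ± 0.091, adjusted p = 0.0397 and the 5 h change 0.75 ± 0.091, adjusted p = 0.00214 (limma). The call at 3 h was lost under 8 of the 17 alternatives (adjusted p from 0.0183 to 0.239 over all of them), with 0.239, 0.0865 and 0.141 without the untreated 0, 1 and 3 h arrays in turn and 0.0693, 0.0882 and 0.149 without the melatonin 0, 1 and 3 h arrays in turn; the other losses came with other processing settings, while that at 5 h held under all 17.

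The largest fall of any member was that of Slc43a2, a facilitator of branched-chain and other neutral amino acids (probe on mm9 chromosome 11, 75387219 to 75387278). Its level was 1.95, 1.28, -1.52 and -3.38 at 0, 1, 3 and 5 h of LPS without melatonin and 1.84, 1.30, -0.90 and -1.45 with it. The arms were alike at 0 and 1 h, and at 3 and 5 h every array lay below every array of 0 and 1 h, with the untreated arm the lower. The change was -3.10 ± 0.481 at 3 h (adjusted p = 0.00668) and -4.31 ± 0.481 at 5 h (adjusted p = 0.00167) (limma), 19.9-fold at 5 h, and a second probe gave -2.59 at 5 h. The 5 h fold was 10.8 without the untreated 5 h array, 36.5 without the melatonin 5 h array and 9.3 with the mean over the gene's probes. The 3 h call was lost under 1 of the 17 alternatives (adjusted p from 0.0024 to 0.0563 over all of them), with 0.0563 without the untreated 3 h array.

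**Figure D2:**
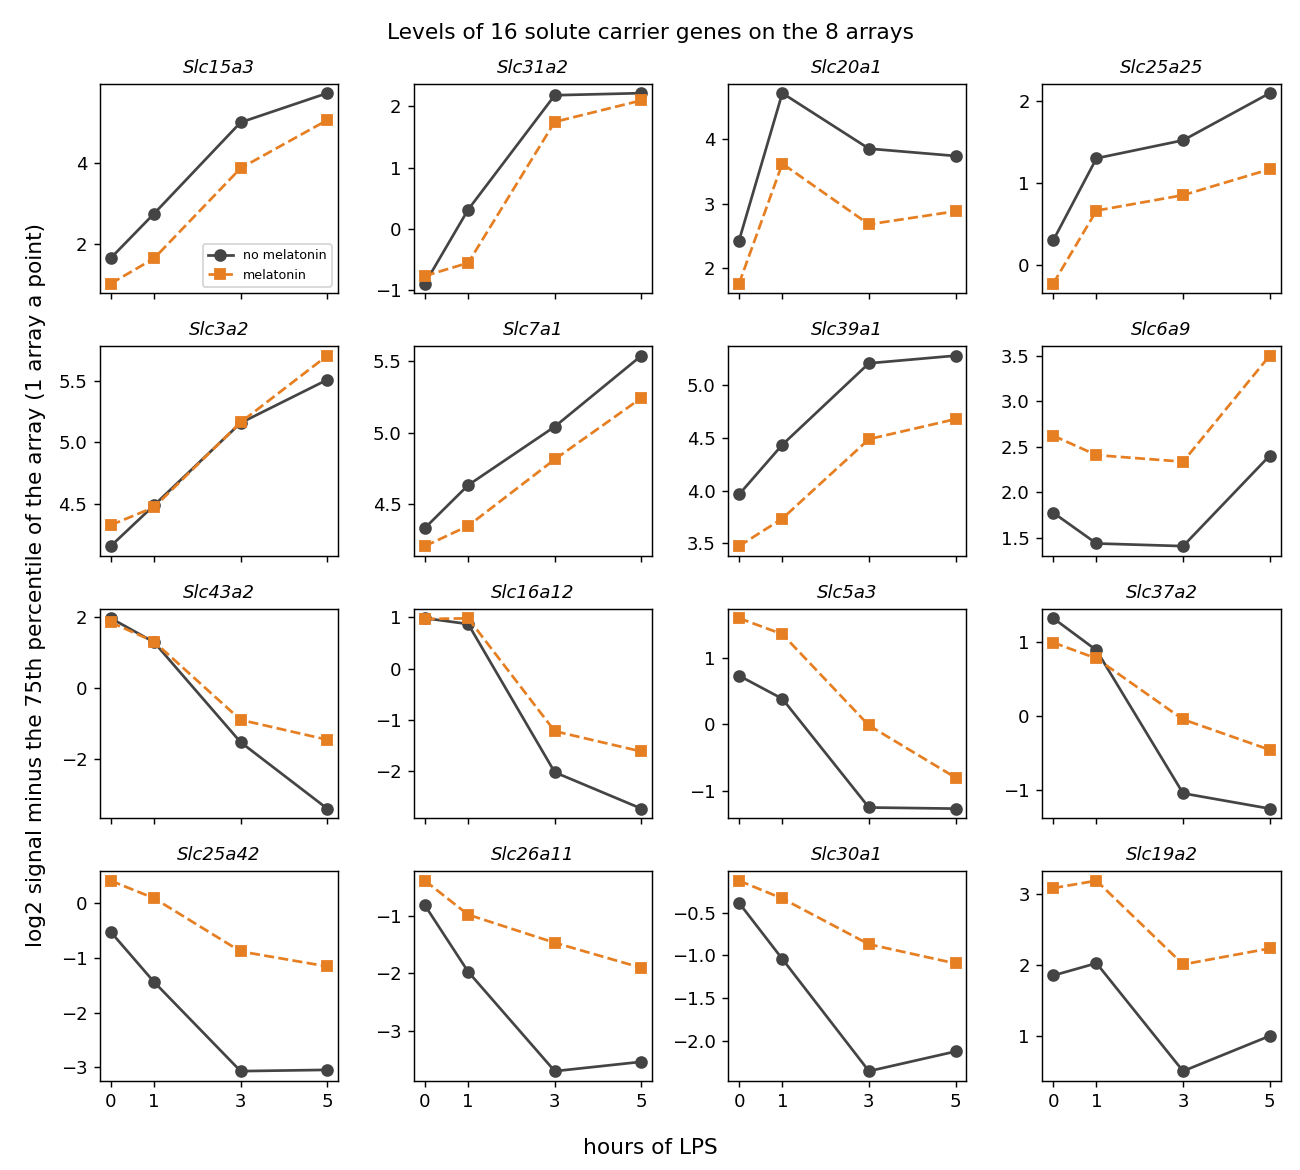
Levels (log2 signal minus the array's 75th percentile, y axis, with its own range in each panel) of 16 solute carrier genes at 0, 1, 3 and 5 h of LPS (x axis) in the untreated arm (grey circles) and the melatonin arm (orange squares), 1 array a point. Slc15a3 climbs at each time, Slc20a1 is highest at 1 h in both arms, and Slc43a2 and Slc16a12 drop between 1 and 3 h.

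The 13 sugar carriers, here and in the paragraph that follows, leave out the glucose carrier Slc2a1, excluded by name. Of them 2 rose and 6 fell at 5 h, beside 24.9% and 19.3% of all genes. Their median change was -0.08. At 3 h none rose and 6 fell. Under the other scalings 6 fell and 0 to 3 rose at 5 h. Slc5a3, which takes up myo-inositol, stood at 0.73, 0.38, -1.25 and -1.27 at 0, 1, 3 and 5 h of LPS without melatonin and 1.59, 1.35, -0.02 and -0.80 with it. It fell in both arms, with a change of -2.19 ± 0.181 at 5 h (adjusted p = 0.000693) (limma), and was the higher with melatonin at all 4 times. Slc37a2, an exchanger of sugar phosphates in the endoplasmic reticulum that is abundant in macrophages, stood at 1.31, 0.88, -1.04 and -1.25 in the untreated arm and 0.99, 0.77, -0.05 and -0.46 in the melatonin arm, in the order of time. Its 5 h change was -2.004 ± 0.341, adjusted p = 0.00617 (limma), which held under all 17 alternatives, and its 3 h call was lost under 2 of the 17 alternatives (adjusted p from 0.0134 to 0.0976 over all of them), with 0.0843 and 0.0976 without the untreated 0 and 3 h arrays in turn.

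Slc37a4, the glucose 6-phosphate translocase of the endoplasmic reticulum, changed by -1.14 ± 0.176 at 5 h (adjusted p = 0.00457) (limma). Slc45a4, placed here by its Slc number although its substrate is poorly known, changed by -1.84 ± 0.406 at 5 h (adjusted p = 0.0145) (limma), from 2.30 to -0.29 in the untreated arm and from 2.23 to 1.15 in the melatonin arm; this call was lost under 2 of the 17 alternatives (adjusted p from 0.0114 to 0.0976 over all of them), with 0.0777 and 0.0976 without the untreated 0 and 5 h arrays in turn. Of the glucose carriers, Slc2a3 rose by 0.52 at 5 h (limma adjusted p = 0.0372), a call that was lost under 11 of the 17 alternatives (adjusted p from 0.0116 to 0.201 over all of them), with 0.201, 0.0663 and 0.0865 without the untreated 0, 1 and 5 h arrays in turn and 0.0644, 0.0657 and 0.169 without the melatonin 0, 1 and 5 h arrays in turn; the other losses came with other processing settings. Slc2a6, a carrier of lysosomal membranes, stood at 5.81, 6.03, 6.34 and 6.41 in the untreated arm and 6.19, 6.06, 6.03 and 6.32 in the melatonin arm, in the order of time and was not called at 5 h (0.37, limma adjusted p = 0.102).

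The monocarboxylate carriers, which move lactate, pyruvate, ketone bodies and related acids, were led by 1 large fall. Slc16a12, a carrier of creatine, stood at 0.98, 0.87, -2.02 and -2.73 at 0, 1, 3 and 5 h of LPS without melatonin and 0.97, 0.98, -1.22 and -1.61 with it. The 4 arrays at 0 and 1 h lay between 0.87 and 0.98 and those at 3 and 5 h between -2.73 and -1.22. The change was -2.60 ± 0.288 at 3 h (adjusted p = 0.00254) and -3.15 ± 0.288 at 5 h (adjusted p = 0.000927) (limma), an 8.86-fold fall. Slc16a1, the widespread lactate and pyruvate carrier, changed by 0.25 at 3 h (limma adjusted p = 0.0493) and 0.20 at 5 h (0.0837), and its 3 h call was lost under 14 of the 17 alternatives (adjusted p from 0.0405 to 0.564 over all of them), with 0.123, 0.0989, 0.22 and 0.0561 without the untreated 0, 1, 3 and 5 h arrays in turn and 0.231, 0.0977, 0.108 and 0.0553 without the melatonin 0, 1, 3 and 5 h arrays in turn; the other losses came with other processing settings. Slc16a10, a carrier of aromatic amino acids, rose at 3 h (0.65 ± 0.092, adjusted p = 0.00508, limma) and was not called at 5 h (0.26, adjusted p = 0.0648). Slc16a6 rose by 0.60 at 5 h (limma adjusted p = 0.0453), a call that was lost under 14 of the 17 alternatives (adjusted p from 0.0392 to 0.231 over all of them), with 0.0606, 0.0569 and 0.052 without the untreated 1, 3 and 5 h arrays in turn and 0.221, 0.06, 0.0568 and 0.231 without the melatonin 0, 1, 3 and 5 h arrays in turn; the other losses came with other processing settings. Of the 7 members, which leave out the excluded Slc16a3, 2 rose and 1 fell at 5 h, beside 24.9% and 19.3% of all genes.

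Mitochondrial carriers, which exchange metabolites, nucleotides and cofactors across the inner membrane, held 3 of the 4 members called at 1 h. Of 34 members 10 rose and 8 fell at 5 h, beside 24.9% and 19.3% of all genes, with a median change of 0.14. Under the other scalings 4 to 7 rose and 10 or 11 fell, with medians of 0.025 to 0.06, so the lean of the family is not settled. Slc25a25, a calcium-regulated carrier of ATP-magnesium and phosphate, stood at 0.30, 1.30, 1.52 and 2.09 at 0, 1, 3 and 5 h of LPS without melatonin and -0.23, 0.66, 0.85 and 1.17 with it. It was higher at each later time in both arms. The change was 0.94 ± 0.118 at 1 h (adjusted p = 0.0237) and 1.59 ± 0.118 at 5 h (adjusted p = 0.000549) (limma). Slc25a33, a carrier of pyrimidine nucleotides, stood at 1.69, 2.75, 3.02 and 3.22 at 0, 1, 3 and 5 h of LPS without melatonin and 1.55, 2.32, 2.85 and 3.20 with it. The change was 0.91 ± 0.114 at 1 h (adjusted p = 0.0237) and 1.59 ± 0.114 at 5 h (adjusted p = 0.000508) (limma), with the arms nearly equal at 5 h. At 1 h the call of Slc25a25 was lost under 8 of the 17 alternatives (adjusted p from 0.0165 to 0.183 over all of them), with 0.148, 0.183 and 0.0788 without the untreated 0, 1 and 3 h arrays in turn and 0.164 and 0.077 without the melatonin 1 and 3 h arrays in turn; the other losses came with other processing settings. That of Slc25a33 was lost under 8 of the 17 alternatives (adjusted p from 0.0187 to 0.157 over all of them), with 0.149, 0.157 and 0.0788 without the untreated 0, 1 and 3 h arrays in turn and 0.0758 and 0.077 without the melatonin 0 and 3 h arrays in turn; the other losses came with other processing settings. The calls of both at 3 and 5 h held under all 17.

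Slc25a45, a carrier of the inner membrane, was the lowered member of 1 h. It stood at 2.82, 2.11, 0.48 and 0.91 at 0, 1, 3 and 5 h of LPS without melatonin and 2.88, 2.30, 0.74 and 1.09 with it. Both arms were lowest at 3 h and higher again at 5 h. The change was -0.65 ± 0.089 at 1 h (adjusted p = 0.0309), -2.24 ± 0.089 at 3 h (adjusted p = 0.000186) and -1.85 ± 0.089 at 5 h (adjusted p = 0.000194) (limma). The 1 h call was lost under 11 of the 17 alternatives (adjusted p from 0.0215 to 0.283 over all of them), with 0.217, 0.283, 0.0791 and 0.0672 without the untreated 0, 1, 3 and 5 h arrays in turn and 0.0718, 0.201, 0.0774 and 0.0664 without the melatonin 0, 1, 3 and 5 h arrays in turn; the other losses came with other processing settings, while those at 3 and 5 h held under all 17.

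Slc25a42, the mitochondrial carrier of coenzyme A, also fell. It stood at -0.53, -1.44, -3.07 and -3.05 at 0, 1, 3 and 5 h of LPS without melatonin and 0.41, 0.09, -0.88 and -1.16 with it. The lowest levels in either arm were at 3 and 5 h, and the melatonin arm was the higher at all 4 times. The change was -2.04 ± 0.289 at 5 h (adjusted p = 0.00343) (limma), and -1.19 with the mean over the gene's probes. Slc25a10, the dicarboxylate carrier that exchanges malate and succinate for phosphate, changed by -0.99 at 3 h (limma adjusted p = 0.0111) and -1.76 at 5 h (0.00131); its 3 h call was lost under 2 of the 17 alternatives (adjusted p from 0.00863 to 0.0828 over all of them), with 0.0828 and 0.0826 without the untreated 0 and 3 h arrays in turn.

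Other carriers of mitochondrial metabolites had smaller changes. Slc25a1, which exports citrate from mitochondria, rose by 0.35 at 5 h (limma adjusted p = 0.0296), a call that was lost under 8 of the 17 alternatives (adjusted p from 0.0265 to 0.191 over all of them), with 0.191, 0.0688 and 0.0887 without the untreated 0, 1 and 5 h arrays in turn and 0.0513, 0.0684 and 0.106 without the melatonin 0, 1 and 5 h arrays in turn; the other losses came with other processing settings. Slc25a20, which imports acylcarnitines, was not called at any LPS time (0.15 at 5 h, limma adjusted p = 0.427). Slc25a5, an exchanger of ADP and ATP, had a 5 h change of 0.17 (limma adjusted p = 0.0422) that turned to -0.15 with quantile scaling and to -0.16 with normexp, so it has no settled direction. For iron, Slc25a37, which imports it for haem synthesis, was not called at 5 h (0.17, limma adjusted p = 0.567), and its relative Slc25a28 fell at 3 h (-0.83 ± 0.094, adjusted p = 0.00263) and 5 h (-0.52 ± 0.094, adjusted p = 0.00721). The 5 h call of Slc25a28 was lost under 1 of the 17 alternatives (adjusted p from 0.00428 to 0.056 over all of them), with 0.056 without the untreated 0 h array.

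**Figure D3:**
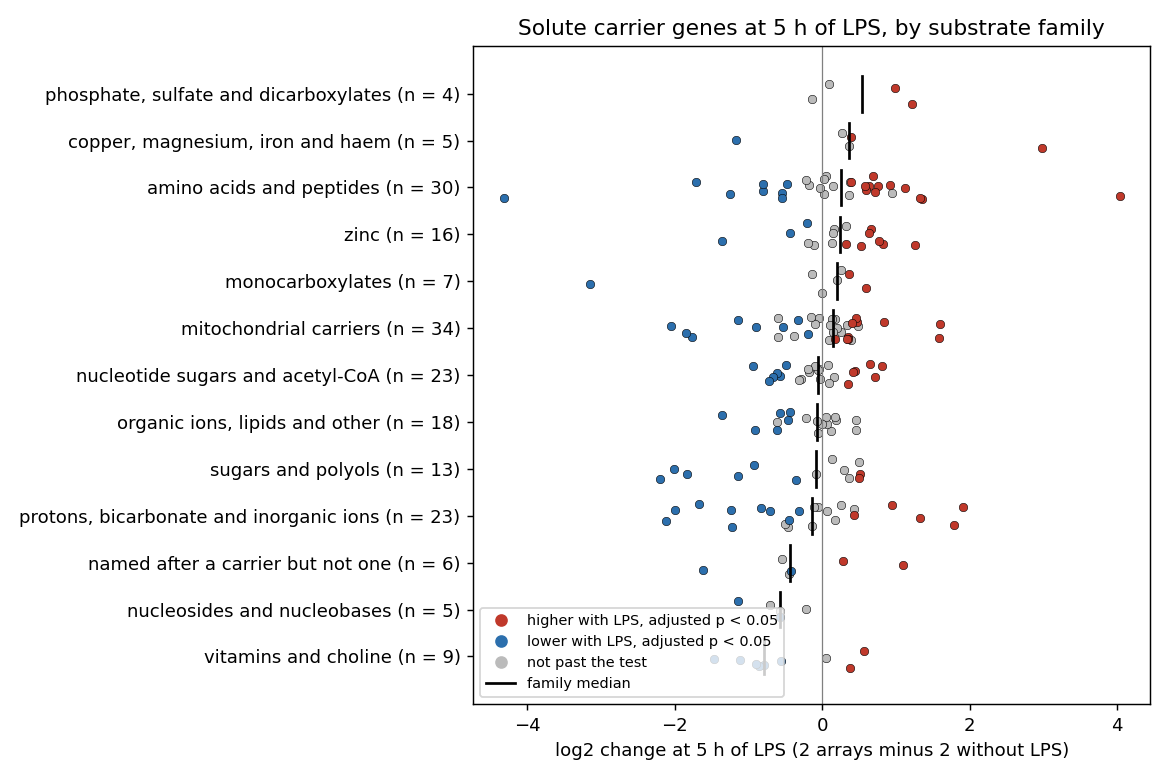
Log2 change at 5 h of LPS (x axis, mean of 2 arrays minus mean of 2 arrays without LPS) of each of the 193 members, in rows by substrate family ordered by family median (black bar), coloured by limma call. Phosphate carriers have the highest family median (0.55, n = 4) and vitamin carriers the lowest (-0.78, n = 9).

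Metal carriers held the second largest rise of the members. Slc31a2, which moves copper out of endosomes and lysosomes, stood at -0.89, 0.32, 2.18 and 2.21 at 0, 1, 3 and 5 h of LPS without melatonin and -0.77, -0.55, 1.75 and 2.10 with it. Every array at 3 and 5 h lay above every array at 0 and 1 h. The change was 2.79 ± 0.232 at 3 h (adjusted p = 0.00118) and 2.98 ± 0.232 at 5 h (adjusted p = 0.000602) (limma), 7.91-fold at 5 h. Slc31a1, the copper importer of the cell surface, rose less, by 0.39 at 5 h (limma adjusted p = 0.0193); this call was lost under 4 of the 17 alternatives (adjusted p from 0.0168 to 0.0952 over all of them), with 0.0952 without the untreated 0 h array and 0.0856 and 0.0835 without the melatonin 0 and 5 h arrays in turn; the other loss came with other processing settings. Slc48a1, which moves haem out of phagolysosomes, stood at 2.27, 1.84, 1.03 and 0.51 at 0, 1, 3 and 5 h of LPS without melatonin and 2.70, 2.48, 2.18 and 2.12 with it. It went down with time in both arms, with a change of -1.17 ± 0.279 at 5 h (adjusted p = 0.0186) (limma), and this call was lost under 2 of the 17 alternatives (adjusted p from 0.0117 to 0.109 over all of them), with 0.109 and 0.0832 without the untreated 0 and 5 h arrays in turn. The family of copper, magnesium, iron and haem carriers had 5 members, without the excluded Slc11a1, Slc11a2 and Slc40a1. Of these members 2 rose and 1 fell at 5 h, beside 24.9% and 19.3% of all genes.

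Of 16 zinc carriers 7 rose and 3 fell at 5 h, beside 24.9% and 19.3% of all genes, with a median change of 0.24. Slc39a1, an importer of zinc at the cell surface, stood at 3.96, 4.44, 5.21 and 5.28 at 0, 1, 3 and 5 h of LPS without melatonin and 3.47, 3.73, 4.49 and 4.68 with it. It climbed in both arms, by 1.26 ± 0.078 at 5 h (adjusted p = 0.000369) (limma), and was the lower with melatonin at all 4 times. Slc39a14, an importer of zinc and of iron, rose by 0.82 ± 0.088 at 5 h (adjusted p = 0.00146) (limma), and Slc30a4, which loads zinc into vesicles, by 0.63 ± 0.104, adjusted p = 0.00547. Both held under all 17 alternatives. Slc39a10, a further zinc importer, was not called at 5 h (0.32, limma adjusted p = 0.199).

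Slc30a1, which exports zinc from the cell, went the other way. It stood at -0.39, -1.04, -2.35 and -2.12 at 0, 1, 3 and 5 h of LPS without melatonin and -0.13, -0.34, -0.87 and -1.09 with it. Within each arm the arrays at 3 and 5 h were below those at 0 and 1 h. The change was -1.35 ± 0.277 at 5 h (adjusted p = 0.0114) (limma), a call that was lost under 2 of the 17 alternatives (adjusted p from 0.00865 to 0.0759 over all of them), with 0.0579 and 0.0759 without the untreated 0 and 5 h arrays in turn. Mtf1, the zinc-sensing factor known to drive Slc30a1 and the metallothioneins, was raised at 5 h (1.19 ± 0.108, adjusted p = 0.000888, limma), the metallothionein Mt2 was raised (1.44, adjusted p = 0.0101) and Mt1 was lowered (-0.44, adjusted p = 0.00771). The call of Mt2 was lost under 1 of the 17 alternatives (adjusted p from 0.00754 to 0.0663 over all of them), with 0.0663 without the untreated 0 h array.

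Phosphate carriers held the largest early rise. Slc20a1, a sodium-coupled importer of inorganic phosphate (probe on mm9 chromosome 2, 129037130 to 129037189), stood at 2.43, 4.72, 3.86 and 3.74 at 0, 1, 3 and 5 h of LPS without melatonin and 1.76, 3.62, 2.68 and 2.89 with it. It was highest at 1 h in both arms and stayed above its 0 h level at 3 and 5 h. The change was 2.07 ± 0.134 at 1 h (adjusted p = 0.00267), 1.17 ± 0.134 at 3 h (adjusted p = 0.00279) and 1.22 ± 0.134 at 5 h (adjusted p = 0.00162) (limma), and these calls held under all 17 alternatives. Its relative Slc20a2 was not called at 5 h (-0.13, limma adjusted p = 0.242). Slc34a2, another phosphate importer, was faint and stood at -2.09, -2.27, -1.45 and -0.76 in the untreated arm and -2.72, -3.02, -2.55 and -2.05 in the melatonin arm, in the order of time; it rose by 0.99 at 5 h (limma adjusted p = 0.00938). That call was lost under 2 of the 17 alternatives (adjusted p from 0.00825 to 0.0659 over all of them), with 0.0659 and 0.0589 without the untreated 0 and 5 h arrays in turn. Xpr1, which exports phosphate, fell at 5 h (-0.50 ± 0.118, adjusted p = 0.0178, limma), a call that was lost under 2 of the 17 alternatives (adjusted p from 0.00678 to 0.122 over all of them), with 0.122 and 0.0853 without the untreated 0 and 5 h arrays in turn.

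Of 23 carriers of protons, bicarbonate and inorganic ions 5 rose and 9 fell at 5 h, beside 24.9% and 19.3% of all genes. Their median change was -0.14. Slc4a7, which brings sodium and bicarbonate into the cell and supports the acidification of phagosomes, stood at 2.20, 3.03, 4.30 and 4.23 at 0, 1, 3 and 5 h of LPS without melatonin and 1.97, 2.27, 4.04 and 3.76 with it. Both arms rose between 1 and 3 h and were a little lower at 5 h, for a change of 2.09 ± 0.14 at 3 h (adjusted p = 0.000706) and 1.92 ± 0.14 at 5 h (adjusted p = 0.000531) (limma). Slc12a4, a potassium and chloride cotransporter that lowers cell volume, stood at 2.67, 3.30, 4.43 and 4.42 at 0, 1, 3 and 5 h of LPS without melatonin and 2.35, 2.77, 4.17 and 4.18 with it. It rose by 1.79 ± 0.093 at 5 h (adjusted p = 0.000245) (limma). Slc9a4, a sodium and proton exchanger, rose by 1.33 ± 0.162 at 5 h (adjusted p = 0.00216) (limma).

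Among the ion carriers that fell, Slc26a11, an anion carrier of sulfate and chloride, had the largest change. It stood at -0.82, -1.97, -3.70 and -3.53 at 0, 1, 3 and 5 h of LPS without melatonin and -0.39, -0.98, -1.47 and -1.90 with it, and its 5 h change was -2.12 ± 0.409, adjusted p = 0.00937 (limma), 4.33-fold, with 2.87-fold without the untreated 0 h array and 6.54-fold without the melatonin 0 h array. The 5 h call was lost under 1 of the 17 alternatives (adjusted p from 0.00536 to 0.0681 over all of them), with 0.0681 without the untreated 5 h array. Slc4a11, a membrane carrier of the bicarbonate carrier family, stood at -1.09, -1.13, -2.11 and -2.69 in the untreated arm and 0.50, 0.30, -0.56 and -1.87 in the melatonin arm, in the order of time and fell by 1.99 at 5 h (limma adjusted p = 0.00126). Slc12a5, a potassium and chloride cotransporter best known from neurons, stood at -2.15, -2.19, -3.24 and -3.90 in the untreated arm and -1.19, -1.16, -1.88 and -2.77 in the melatonin arm, in the order of time and fell by 1.67 (0.000845), and by 1.03 with normexp.

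Vitamin and choline carriers had the lowest median of the families at 5 h, -0.78, with 2 of 9 members raised and 6 lowered. Over all genes 24.9% rose and 19.3% fell. Slc46a3, a lysosomal carrier, stood at -1.36, -1.69, -3.44 and -3.13 at 0, 1, 3 and 5 h of LPS without melatonin and -0.61, -0.90, -1.83 and -1.77 with it, and fell by 1.46 at 5 h (limma adjusted p = 0.00547). Slc19a2, the thiamine importer, stood at 1.85, 2.02, 0.50 and 0.99 at 0, 1, 3 and 5 h of LPS without melatonin and 3.08, 3.18, 2.002 and 2.23 with it. It was lowest at 3 h in both arms, with a change of -1.21 ± 0.108 at 3 h (adjusted p = 0.00137) and -0.85 ± 0.108 at 5 h (adjusted p = 0.00242) (limma). Slc44a1, a choline carrier, changed by -0.78 ± 0.108 at 5 h (adjusted p = 0.00321), and Slc46a1, the proton-coupled folate carrier, by -1.11 (limma adjusted p = 0.0293). The call of Slc46a1 was lost under 5 of the 17 alternatives (adjusted p from 0.0232 to 0.169 over all of them), with 0.169 and 0.165 without the untreated 0 and 5 h arrays in turn; the other losses came with other processing settings. The reduced folate carrier Slc19a1 rose instead, by 0.57 ± 0.068 at 5 h (adjusted p = 0.00206) (limma), and Slc23a2, a vitamin C importer, was not called (0.05, adjusted p = 0.779).

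Of the 5 nucleoside and nucleobase carriers none rose and 2 fell at 5 h, beside 24.9% and 19.3% of all genes. Slc29a1, the equilibrative carrier of adenosine and other nucleosides, stood at 2.50, 2.35, 1.82 and 1.19 at 0, 1, 3 and 5 h of LPS without melatonin and 2.13, 1.99, 1.62 and 1.16 with it. It was lower at each later time in both arms, with a change of -1.14 ± 0.113 at 5 h (adjusted p = 0.00118) (limma). Slc29a3, its lysosomal relative, had a 5 h change of -0.70 and was not called (limma adjusted p = 0.0535). All 5 members had a 5 h change below 0, and 2 passed the test.

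Carriers of nucleotide sugars, which supply the Golgi apparatus with building blocks of glycans, were balanced at 5 h. Of 23 members 6 were raised and 6 lowered, beside 24.9% and 19.3% of all genes, with a median of -0.06. The family was drawn by Slc number, and members of Slc35f and Slc35g have poorly known substrates. The largest rise was that of Slc35f4 (0.81 ± 0.109, adjusted p = 0.00289, limma) and the largest fall that of Slc35g1 (-0.94, adjusted p = 0.0111). The call of Slc35g1 was lost under 1 of the 17 alternatives (adjusted p from 0.00457 to 0.0759 over all of them), with 0.0759 without the untreated 0 h array. Slc35b1, which brings ATP into the endoplasmic reticulum, rose by 0.65 (limma adjusted p = 0.00463), Slc33a1, which brings in acetyl-CoA, by 0.45 (0.00835), and Slc35a1, the carrier of CMP-sialic acid, by 0.35 (0.0338). The call of Slc33a1 was lost under 1 of the 17 alternatives (adjusted p from 0.0071 to 0.0542 over all of them), with 0.0542 without the melatonin 0 h array. That of Slc35a1 was lost under 10 of the 17 alternatives (adjusted p from 0.00555 to 0.143 over all of them), with 0.143, 0.0672 and 0.072 without the untreated 0, 1 and 5 h arrays in turn and 0.121, 0.0677 and 0.138 without the melatonin 0, 1 and 5 h arrays in turn; the other losses came with other processing settings.

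Of the 18 carriers of organic ions, lipids and other solutes none rose and 6 fell at 5 h, beside 24.9% and 19.3% of all genes. Their median was -0.06. Slc22a15 fell most (-1.36, limma adjusted p = 0.00695), a call that was lost under 1 of the 17 alternatives (adjusted p from 0.00178 to 0.0514 over all of them), with 0.0514 without the untreated 0 h array. Neither Slc17a5, the sialic acid exporter of lysosomes (-0.06, adjusted p = 0.602), nor the fatty acid carriers Slc27a1 (0.17, 0.432) and Slc27a4 (0.00, 0.986) were called by limma, and a second probe of Slc17a5 gave -1.55. A further 6 members carry an Slc name without being carriers, as adaptors, overlapping transcripts or pseudogenes. The scaffold Slc9a3r2 fell among these (-1.62 ± 0.137, adjusted p = 0.000741, limma). Slc7a6os, named for its overlap with Slc7a6, had a change of 1.09 (adjusted p = 0.00238) that was -0.02 when its probes were averaged, so its direction depends on the probe.

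Melatonin differences were spread over both directions. Over the 4 times 49 members were higher and 43 lower with melatonin, 47.7% of the members, beside 40.6% of all genes tested. Fitted only on genes above background on all 8 arrays, the filter the members passed, 48.7% of the members were called beside 47.2% of the genes, a share near the background. Of the members 25.4% were higher and 22.3% lower, beside 15.3% and 25.3% of all genes, and the median difference was 0.01 beside -0.10. At single times, which have no test, 64 members (33.2%) were higher with melatonin at all 4 times, beside 22.5% of all genes, and 60 (31.1%) were lower at all 4, beside 36.7%. With the 75th percentile over probes above background on all 8 arrays 60 members were higher and 33 lower. The 92 calls became 50 and 52 without the melatonin or untreated 3 h array, and 53 without either 1 h array. The differences were smaller than those of LPS, with 7 of the 193 members called past 2-fold higher and 1 past 2-fold lower. Among the 16486 genes above background on all 8 arrays, 413 (2.51%) were called past 2-fold in either direction.

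Markers of cell types moved with melatonin too. Of the 10 macrophage markers 7 were called lower with melatonin and none higher (limma), and their summed signal, in units of the array's 75th percentile, was 913 to 1078 on the untreated arrays and 808 to 900 on the melatonin arrays. The 3 markers of other cell types that were above background on all 8 arrays were also called lower, with differences of -0.36 for Cd3e (limma adjusted p = 0.00907), -0.35 for Cd4 (0.00808) and -0.49 for Elane (0.00466). Their summed signal was 7.67 to 8.48 without melatonin and 5.89 to 6.38 with it, and none of the 3 was called at 5 h of LPS. The part of these shifts in the melatonin differences was not tested.

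Among members higher with melatonin, Slc25a42, the coenzyme A carrier, had the largest difference in the main setting. Melatonin minus untreated was 0.94, 1.53, 2.19 and 1.89 at 0, 1, 3 and 5 h, with a mean of 1.64 ± 0.204, adjusted p = 0.00435 (limma), a 3.11-fold difference. The difference was above 0 at every time and largest at 3 h. With the mean over the gene's probes the difference was 0.72 (1.64-fold) and Slc4a11 had the largest, and with normexp it was 1.17 (2.24-fold) and Slc19a2 had the largest. Slc4a11 had differences of 1.58, 1.43, 1.55 and 0.82 and a mean of 1.34 ± 0.143, adjusted p = 0.00334. Slc19a2, the thiamine importer, had differences of 1.23, 1.16, 1.504 and 1.23, which lay close together, with a mean of 1.28 ± 0.076, adjusted p = 0.00224. Slc25a30, a mitochondrial carrier, had differences of 0.86, 1.30, 1.49 and 1.05 and a mean of 1.17 ± 0.119, adjusted p = 0.00306, although no LPS time was called for it. Slc6a9, the glycine carrier, had differences of 0.85, 0.97, 0.93 and 1.10, with a mean of 0.96 ± 0.065, adjusted p = 0.00224. Each of these 5 calls held under all 17 alternatives.

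The remaining 3 of the 8 highest with melatonin were lowered at 5 h of LPS. They were Slc46a3 (mean 1.13, adjusted p = 0.00661), Slc12a5 (1.12, 0.00272) and Slc26a11 (1.32, 0.0176), by limma. The differences of Slc26a11 were 0.43, 0.99, 2.23 and 1.63 in the order of time, the smallest without LPS, and its call was lost under 3 of the 17 alternatives (adjusted p from 0.0128 to 0.0652 over all of them), with 0.065 without the untreated 5 h array and 0.0505 and 0.0652 without the melatonin 3 and 5 h arrays in turn. The LPS and melatonin comparisons share all 8 arrays. The inositol importer Slc5a3 was also higher (0.88 ± 0.128, adjusted p = 0.00609, limma), as were the haem carrier Slc48a1 (0.96, 0.0146) and the zinc exporter Slc30a1 (0.87, 0.0191). The call of Slc48a1 was lost under 2 of the 17 alternatives (adjusted p from 0.0127 to 0.0661 over all of them), with 0.0661 without the untreated 3 h array and 0.0658 without the melatonin 3 h array. That of Slc30a1 was lost under 6 of the 17 alternatives (adjusted p from 0.0133 to 0.0677 over all of them), with 0.0535, 0.0539 and 0.0677 without the untreated 1, 3 and 5 h arrays in turn and 0.0531, 0.0542 and 0.0677 without the melatonin 1, 3 and 5 h arrays in turn.

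Among members lower with melatonin, Slc17a6, a vesicular glutamate carrier best known from neurons, had the largest difference. It stood at -1.06, -0.74, -1.15 and -2.20 at 0, 1, 3 and 5 h of LPS without melatonin and -3.17, -1.57, -2.95 and -3.25 with it, faint on this array. Its differences were -2.10, -0.83, -1.80 and -1.05, with a mean of -1.45 ± 0.229, adjusted p = 0.00741 (limma), largest without LPS. The phosphate importers Slc20a1 and Slc34a2 were both lower. The differences of Slc20a1 were -0.67, -1.09, -1.17 and -0.86, with a mean of -0.95 ± 0.095, adjusted p = 0.00305, and those of Slc34a2 -0.63, -0.75, -1.11 and -1.29, with a mean of -0.94 ± 0.136, adjusted p = 0.00593. Slc15a3, the endolysosomal peptide carrier, had differences of -0.63, -1.10, -1.12 and -0.66 and a mean of -0.88 ± 0.108, adjusted p = 0.00419.

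Other members of the lowered group had smaller differences. Slc25a25 had a mean of -0.69 ± 0.083, adjusted p = 0.00413 and the zinc importer Slc39a1 of -0.63 ± 0.055, adjusted p = 0.00255 (limma), and all 4 of their single times were below 0. Slc25a37, the iron importer, had differences of -0.21, -0.28, -0.83 and -1.05 (mean -0.59, limma adjusted p = 0.0302), and its call was lost under 7 of the 17 alternatives (adjusted p from 0.0259 to 0.114 over all of them), with 0.114 and 0.0776 without the untreated 3 and 5 h arrays in turn and 0.114 and 0.0769 without the melatonin 3 and 5 h arrays in turn; the other losses came with other processing settings. The lactate carrier Slc16a1 was lower too (-0.47 ± 0.054, adjusted p = 0.00379, limma), as were Slc31a1 (-0.43, 0.0068) and Slc16a10 (-0.40, 0.00813).

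**Figure D4:**
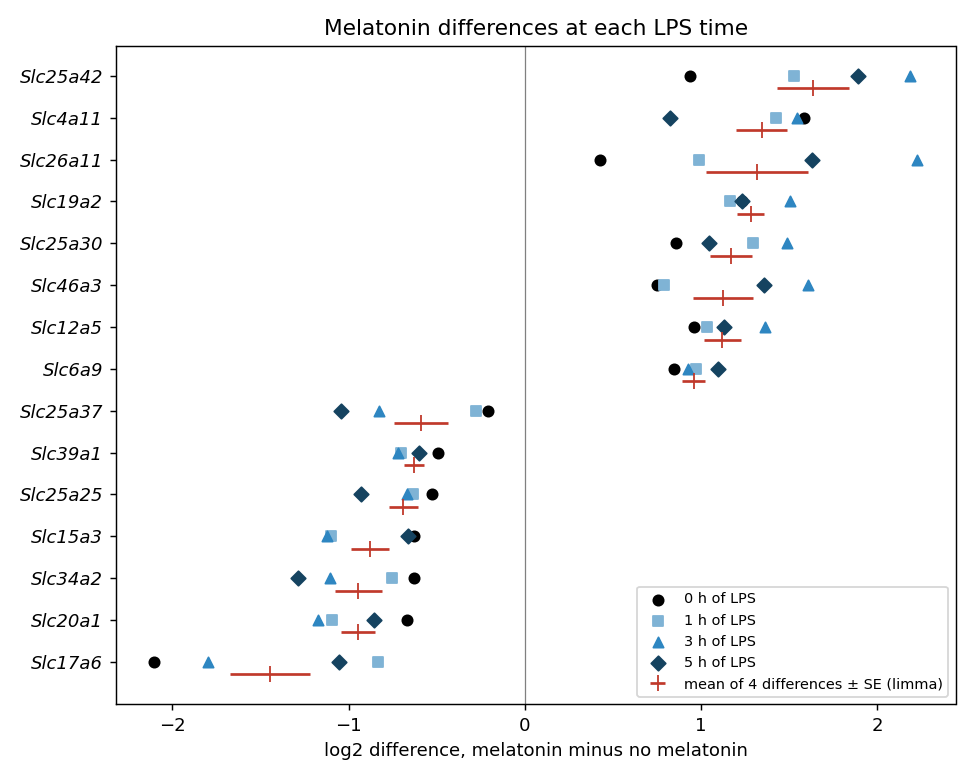
Melatonin minus untreated difference in log2 level (x axis) of 8 members higher and 7 lower with melatonin, chosen among those with the largest called differences, at each LPS time (symbols, 1 array minus 1 array) and as the limma mean of the 4 differences with its SE (red). All 15 genes keep 1 side of 0 at all 4 times, which choosing them by their called mean differences favours. Slc17a6 is at -1.45 and Slc25a42 at 1.64.

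By family, the melatonin differences lay in different directions. Over all genes tested 15.3% were higher and 25.3% lower with melatonin. Of 23 nucleotide sugar and acetyl-CoA carriers 10 were higher and 1 lower with melatonin, with a median of 0.24. Among them Slc35a1 was higher by 0.50 (limma adjusted p = 0.00578) and Slc33a1 by 0.43 (0.00532), and the member that was lower was Slc35f4 (-0.43, 0.00972). Under the other scalings 12 of the 23 were higher and 1 lower. Of 30 amino acid and peptide carriers 4 were higher and 8 lower, with a median of -0.15, and 5 were higher and 4 lower with quantile scaling or the deposited table. Of 34 mitochondrial carriers 9 were higher and 7 lower, of 16 zinc carriers 5 and 5, and of 23 ion carriers 8 and 7. Under the other scalings 13 of the mitochondrial carriers were higher and 4 to 6 lower. For zinc carriers 6 or 7 were then higher and 3 to 5 lower, and for ion carriers 8 or 9 higher and 4 to 6 lower. The small difference of the arginine importer Slc7a1 (-0.23, adjusted p = 0.0133) turned to between 0.007 and 0.02 with quantile scaling, the deposited table or normexp.

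The test of whether the melatonin difference with LPS differed from that without it called none of the 193 members (limma), beside 0% of all genes tested; 7 members had an unadjusted p under 0.05. The largest terms of the members were -1.50 for Slc25a34, 1.19 for Slc26a11 and 1.17 for Slc25a44, with adjusted p of 0.908, 0.908 and 0.789. At 2 residual degrees of freedom the median SE of this term over the members was 0.211, beside 0.125 for an LPS change.

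A list of 39 genes that work with solute carriers, or move solutes without an Slc number, was examined beside them, of which 33 were tested. At 5 h 5 rose and 12 fell, with a median change of -0.11, beside 24.9% of all genes tested that rose and 19.3% that fell. With melatonin 7 were higher and 5 lower, beside 15.3% and 25.3% of all genes. Of the 17 calls at 5 h 6 held under all 17 alternatives, among them those of Mfsd2a, Oxsr1, Sfxn3, Mt1 and Mtf1. Bsg, the chaperone that brings monocarboxylate carriers to the membrane, rose (0.52, limma adjusted p = 0.00579), as did Mfsd2a, a carrier of lysophospholipids (1.40, 0.00119), and Oxsr1, a kinase of the potassium and chloride cotransporters (0.63, 0.00392). Lowered genes included the organic anion carrier Slco4a1 (-1.37, 0.0125), the sideroflexin Sfxn3, of a family of mitochondrial serine carriers, (-1.37, 0.0029), the haem exporter Flvcr1 (-0.55, 0.029), and Nedd4l (-1.14, 0.0322), a ubiquitin ligase that removes carriers from the membrane. The call of Bsg was lost under 1 of the 17 alternatives (adjusted p from 0.00495 to 0.0509 over all of them), with 0.0509 without the untreated 0 h array. That of Slco4a1 was lost under 3 of the 17 alternatives (adjusted p from 0.00423 to 0.0699 over all of them), with 0.0665 and 0.0654 without the untreated 0 and 5 h arrays in turn and 0.0699 without the melatonin 5 h array. That of Flvcr1 was lost under 6 of the 17 alternatives (adjusted p from 0.0162 to 0.167 over all of them), with 0.167, 0.0564 and 0.158 without the untreated 0, 1 and 5 h arrays in turn and 0.056 without the melatonin 1 h array; the other losses came with other processing settings. That of Nedd4l was lost under 9 of the 17 alternatives (adjusted p from 0.00769 to 0.186 over all of them), with 0.186, 0.0508 and 0.128 without the untreated 0, 1 and 5 h arrays in turn and 0.0501 and 0.127 without the melatonin 1 and 5 h arrays in turn; the other losses came with other processing settings.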

How the data were processed

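The 8 deposited files of 1-colour arrays hold processed intensity, which the scanner software (Agilent Feature Extraction, version 12.0.3.1 in the submitters' processing notes) had background-subtracted and detrended, per the file headers. Flags of 0 or 1 for spots well above background, deposited as other columns, are the scanner software's. The deposited log2 table of the authors, with the same sorted values on every array, was an alternative only; no label or header used here names its software. Mean and background intensity columns, deposited uncorrected, served the normexp alternative (offset 50). Probe positions are on mm9, per the file headers.

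Signals were taken as log2 minus the 75th percentile of each array over all non-control spots. Control spots (3671 of 62976) were dropped, and repeated spots averaged by probe (56605 probes). A probe well above background on at least 2 arrays entered (30417). For each gene, probes above background on all 8 arrays came first, and then the brightest was taken, which left 20076 genes. Accessions in RefSeq matched 178 of the 193 members. For 76 members with several probes, 18 had probes of opposite sign at 5 h. Computation was in R (4.3.3) with the packages limma (3.58.1) and data.table (version 1.17.8). An additive limma model with an intensity trend held LPS time and melatonin (3 residual degrees of freedom), and a second added a melatonin by LPS term (2). P-values were 2-sided and adjusted over all genes by Benjamini-Hochberg, with calls under 0.05, and the scripts were tested on simulated data. With 1 array per condition there was no spread of replicates. The SE and p-values of these 8 arrays rest on how far the melatonin difference varied between LPS times. Technical spread and true differences between the arms in their LPS response both enter it and cannot be told apart. The number of arrays limits the precision.

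Alternatives were quantile scaling, the deposited table, the percentile over probes above background on all 8 arrays, normexp, other filters, a common floor, no intensity trend, the mean of a gene's probes, and leaving out each array. Named genes were the 8 largest called rises and falls of each comparison with the same sign in both arms, the extremes of each family at 5 h, a panel of known carriers, and partner genes called at 5 h; some of these genes are not reported here. The members and lists were chosen with earlier results of these data known.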

Additional observations from a re-analysis of the deposited data

Results flagged for a closer look

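Slc6a4, the serotonin carrier, was outside the members because it was above background on 4 of 8 arrays. It was not well above background on either array without LPS or at 1 h and was above it on all 4 arrays at 3 and 5 h. Set against the lowest signal well above background on the arrays without LPS, it was at least 3.61-fold higher at 5 h and at least 3-fold higher at 3 h. Such a bound takes the mean of the bright arrays over that limit. The gene entered the test only through the arrays on which it was bright, so no p-value is given.

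Slc35b4, a carrier of UDP-sugars in the Golgi apparatus, moved in opposite directions in the arms at 5 h of LPS. Of the 193 members 32 had opposite signs, and this was the one with at least 0.5 (log2) in each. Its level rose by 0.504 from 0 to 5 h with melatonin and changed by -0.584 without it, from 1 array at each time. The difference at 5 h itself was not tested. The melatonin by LPS term over the 3 LPS times was 0.726 (limma adjusted p = 0.908), and the mean melatonin difference was 0.685 (adjusted p = 0.0359).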

How the results depend on the processing

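No paired analysis was possible because the replicate number is 1 in every condition and gives no block beyond the model, which already takes melatonin within LPS time and LPS within arm. Of the named calls, 1 of 4 at 1 h, 22 of 44 at 3 h, 33 of 55 at 5 h and 21 of 44 for melatonin held under all 17 alternatives. The partner genes were run after the data were seen, and 6 of 17 calls held. By fold, 8 named calls moved by over 1.5 times under an alternative. At 1 h, 4 members were called in the main setting, 1 with no filter, 1 with a common floor, 1 without the intensity trend and 7 with the mean over all probes. Leaving out each array in turn gave 1 to 3 calls at 1 h, 33 to 85 at 3 h, 57 to 102 at 5 h, 50 to 82 for melatonin and 0 for the melatonin by LPS term; that term cannot be estimated without either 0 h array. A left-out array leaves its condition empty, so the lone array of that time is assumed to vary like the others. With the mean over all probes, Slc7a6os at 5 h turned to -0.024 (limma adjusted p = 0.917). Slc25a5 at 5 h turned to -0.148 with quantile scaling, -0.1 with the deposited table and -0.164 with normexp, and the melatonin difference of Slc7a1 to 0.007, 0.013 and 0.02. The causes were not tested. Signal over background limits the faintest members, of which Slc5a9 had a mean level of -3.70.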

Other observations

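Leaving out the excluded names, 41 Slc-named genes that were no members were above background on 2 to 7 arrays. Besides the serotonin carrier, 3 of these 41 were above background on both arrays without LPS and on none of the 4 arrays at 3 and 5 h. Slc2a4, the insulin-responsive glucose carrier, was at least 2.35-fold lower at 5 h. Slc5a11, an inositol carrier, was at least 1.77-fold lower. Slc13a2, a carrier of citrate and other dicarboxylates, had a bound of at least 1.46-fold lower. These 3 entered the test only through the arrays on which they were bright, so no p-value is given.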
